A study of Homo sapiens with 6 samples.

Results

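The protein-coding genes of the short arm of human chromosome 17 were followed in prostate cancer cells selected for resistance to cabazitaxel (CBZ), a taxane that binds tubulin and blocks microtubule disassembly. Members were all rows of the read-count table that were annotated as protein-coding, lay on chromosome 17 and started below position 25000000 (GRCh38). This gave 345 genes out of 58735 rows, and 225 of them held enough counts to be tested. The rule used position and biotype alone and no expression value, though members were chosen with earlier results of these data known.

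C4-2B is an established human prostate cancer cell line of the castration resistant kind. RC4-2B is the subclone that was derived from it by repeated 72 h exposures to rising CBZ concentrations, from 0.1 nM to 20 nM over 4 months, so every RC4-2B library describes 1 selected line. RNA-seq was available for 3 biological replicates of each line, both grown for 72 h in RPMI-1640 with serum and penicillin/streptomycin. For the serum, the paper's RNA-seq method names both 10% CSS, which it does not spell out, and 10% fetal bovine serum. No drug treatment is labelled for the sequenced cells. Whether replicates came from separate cultures is not stated in the sources used here, so p-values measure the spread between these libraries.

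Genes of one chromosome arm share no function, and the short arm of chromosome 17 carries tumour suppressors and kinases next to muscle myosins and olfactory receptors. Among its members is NCOR1, a corepressor that binds nuclear hormone receptors. As general background, the RNA of many genes on a chromosome segment tends to follow the number of copies of that segment, so values in gene order can show blocks that a list sorted by fold change hides. The number of copies was not measured here.

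Libraries held 15707134 to 18052517 counts, and 3 counts corresponded to 0.170 to 0.188 CPM (counts scaled to library size after TMM normalization). ABCB1, the efflux pump that exports taxanes, had 0 or 1 count in the C4-2B libraries and 10742 to 15948 in the RC4-2B libraries. All 7 luminal prostate markers examined were expressed in both lines, whereas 9 of 10 basal, fibroblast, endothelial and leukocyte markers had at most 3 counts in every library. The exception was COL1A1, with 355 to 585 counts. RC4-2B replicate 2 stood apart. Its deviations from the C4-2B mean of each gene followed the GC content of the transcript (Spearman's rho = -0.62 across genes, against -0.31 to 0.22 in the other 5 libraries), so GC-rich genes read low in that library. For RC4-2B libraries these deviations include any difference between the lines. The main results are therefore given from the counts as deposited and after each library was corrected for its GC trend. CPM values printed for single genes carry no GC correction, so a corrected log2 fold change can differ from their ratio.

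The arm as a whole was higher in RC4-2B by a small amount, and the amount depended on the GC correction. Without it, the median difference in mean log2 CPM over the 225 tested genes was 0.122, a 1.09-fold difference. After the correction it was 0.231, or 1.17-fold. Fold changes were above 0 for 149 genes (66.2%) before and 185 genes (82.2%) after the correction, beside 50.7% and 50.0% of all 15054 tested genes. In RNA from whole cultures, fewer cells with a high level and less RNA per cell cannot be told apart.

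Library by library, the uncorrected medians of the arm, relative to the C4-2B mean, were 0.023, -0.001 and -0.017 in C4-2B. They were 0.265, -0.029 and 0.175 in RC4-2B. RC4-2B replicate 2 thus lay slightly under the C4-2B values and the other RC4-2B libraries above all of them, and the groups were not separated (exact permutation test on library medians, two-sided, p = 0.4). Leaving out RC4-2B replicate 2 raised the uncorrected arm median to 0.210, and leaving out replicate 1 of that line lowered it to 0.079. After the GC correction the C4-2B medians were 0.008, 0.010 and -0.013, and those of RC4-2B were 0.244, 0.233 and 0.232. The 3 RC4-2B libraries then stood together above all C4-2B libraries, with p = 0.1 in the same exact test, the smallest value that 3 against 3 libraries can give.

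**Figure D1:**
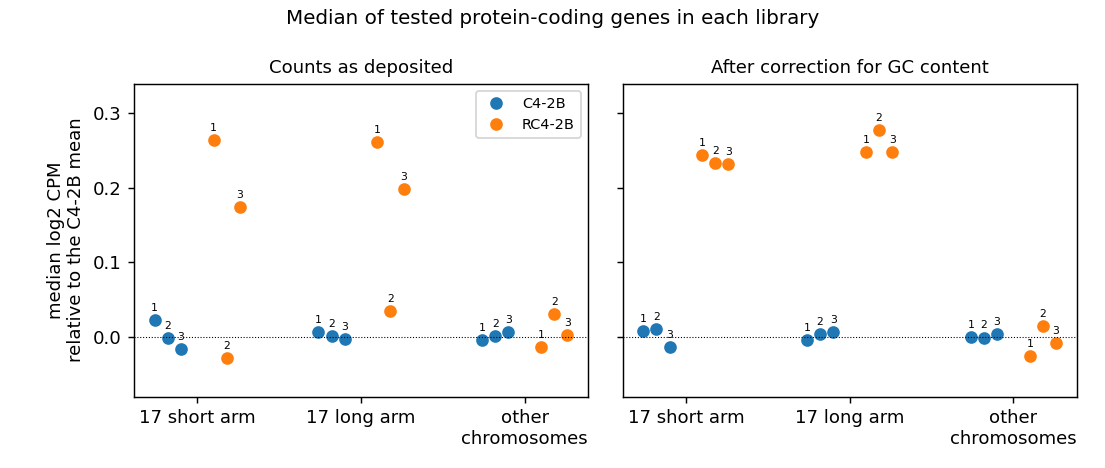
Each point is the median log2 CPM of the tested protein-coding genes of 1 library relative to the C4-2B mean (y axis), for the short arm, the long arm and the other chromosomes, with blue for C4-2B, orange for RC4-2B and the replicate number above each point. RC4-2B replicate 2 lies at -0.029 for the short arm with counts as deposited (left) and at 0.233 after the GC correction (right), where all 3 RC4-2B libraries exceed the C4-2B libraries on both arms of chromosome 17.

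The long arm of the same chromosome was shifted by a like amount. Over 539 tested protein-coding genes of the long arm, the corrected RC4-2B medians were 0.248, 0.278 and 0.248, while those of 11695 genes on other chromosomes were -0.026, 0.015 and -0.008. The short arm minus the long arm came to -0.029 after correction (exact permutation test, two-sided, p = 0.1) and to -0.028 before it (p = 0.2). On corrected values, centred over the 6 libraries, this difference was lower in every RC4-2B library than in every C4-2B library, and p = 0.1 is again the smallest value this exact permutation test can give. On uncorrected values the groups overlapped. On the uncorrected scale, 56 tested rows of the short arm that are not protein-coding had RC4-2B medians of 0.373, 0.080 and 0.228, higher in each library than all 3 C4-2B medians, which were at most 0.032.

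The uncorrected shift changed with GC content within the arm. In the 75 members with the lowest GC content (35.7% to 51.9%) the median log2 fold change was 0.31, in the middle 75 it was 0.15, and in the 75 with the highest content (57.3% to 70.9%) it was -0.07. On other chromosomes, genes in the same GC ranges had medians of 0.14, -0.12 and -0.35, so the arm lay above them in each range. After the correction the 3 parts of the arm had medians of 0.23, 0.26 and 0.24. Gene length still moved with the corrected values, with 0.19 in the shortest 75 members and 0.28 in the longest 75, beside -0.08 and 0.05 in other genes of those lengths.

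Few single genes passed the test on the counts as deposited. At an adjusted p under 0.05 (edgeR's quasi-likelihood F test, Benjamini-Hochberg adjusted over all tested genes), 3 members were higher (1.33%, beside 1.08% of all tested genes) and 1 was lower (0.444%, beside 0.903%). The share of called members was therefore near the background in both directions. The 4 genes were PAFAH1B1, ANKFY1 and GLP2R, which rose, and TRPV3, which fell. At an unadjusted p under 0.05 the same fit gave 58 members higher (25.8%, beside 12% of all tested genes) and 8 lower (3.56%, beside 9.42%).

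TRPV3, which encodes a heat-activated cation channel known from skin, had 4.53, 5.72 and 6.95 CPM in C4-2B and 1.44, 0.855 and 0.999 CPM in RC4-2B. The groups did not overlap, and the fall was 5.22-fold (log2 fold change -2.38, standard error 0.29, edgeR adjusted p = 0.00758). GLP2R, the receptor for the gut hormone glucagon-like peptide 2, was near the limit of the assay in C4-2B, at 0.716, 0.623 and 0.683 CPM, which are 11 or 12 counts per library. In RC4-2B it had 3.31, 2.11 and 2.76 CPM, from 37 to 53 counts, a 4.01-fold rise (log2 fold change 2.00, standard error 0.30, edgeR adjusted p = 0.018).

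PAFAH1B1, also called LIS1, regulates the microtubule motor dynein. It had 121, 121 and 120 CPM in C4-2B and 163, 182 and 169 CPM in RC4-2B, so the groups were separated by more than their spread (log2 fold change 0.51, standard error 0.10, edgeR adjusted p = 0.0435). After the GC correction the PAFAH1B1 log2 fold change was 0.33 (edgeR adjusted p = 0.0499), beside an arm median of 0.24. With gene length corrected as well it was 0.28 and did not pass (edgeR adjusted p = 0.0906). ANKFY1, an effector of the small GTPase Rab5 on endosomes, had 75.6, 83.2 and 85.5 CPM in C4-2B and 112, 124 and 123 CPM in RC4-2B (log2 fold change 0.56, standard error 0.11, edgeR adjusted p = 0.0423). ANKFY1 overlaps CYB5D2 on the opposite strand, and whether counting used the strand is not given in the sources used here. Both rises lost significance when any C4-2B library or RC4-2B replicate 3 was left out, as did that of GLP2R, with edgeR adjusted p-values up to 0.255, whereas TRPV3 passed the test without each of the 6 libraries in turn.

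The upstream sequences of these 4 genes are shown because they are the members that passed the uncorrected test, and because they sit in promoters of unlike CpG content. Each holds the 250 bases before the annotated start (RefSeq, GRCh38.p14), 5′ to 3′ on the strand of the gene, with CG dinucleotides in capitals. They lie at chr17:2593404-2593653 (plus strand) for PAFAH1B1, chr17:4263980-4264229 (minus strand) for ANKFY1, chr17:9825674-9825923 (plus strand) for GLP2R and chr17:3557813-3558062 (minus strand) for TRPV3.
PAFAH1B1: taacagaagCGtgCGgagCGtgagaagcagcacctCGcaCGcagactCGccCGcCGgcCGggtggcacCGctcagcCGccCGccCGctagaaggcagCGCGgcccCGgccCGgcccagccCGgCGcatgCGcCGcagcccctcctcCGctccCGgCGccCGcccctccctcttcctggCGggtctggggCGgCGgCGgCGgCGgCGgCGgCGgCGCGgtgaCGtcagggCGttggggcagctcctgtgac
ANKFY1: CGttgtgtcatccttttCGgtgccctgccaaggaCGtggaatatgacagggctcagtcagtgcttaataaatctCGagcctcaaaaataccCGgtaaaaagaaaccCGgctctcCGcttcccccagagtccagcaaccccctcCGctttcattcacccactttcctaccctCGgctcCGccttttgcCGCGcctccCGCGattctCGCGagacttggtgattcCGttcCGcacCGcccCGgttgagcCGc
GLP2R: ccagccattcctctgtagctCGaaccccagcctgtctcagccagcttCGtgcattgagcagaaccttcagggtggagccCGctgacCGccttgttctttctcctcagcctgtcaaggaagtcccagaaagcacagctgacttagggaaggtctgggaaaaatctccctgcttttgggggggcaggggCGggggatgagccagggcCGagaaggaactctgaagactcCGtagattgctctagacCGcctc
TRPV3: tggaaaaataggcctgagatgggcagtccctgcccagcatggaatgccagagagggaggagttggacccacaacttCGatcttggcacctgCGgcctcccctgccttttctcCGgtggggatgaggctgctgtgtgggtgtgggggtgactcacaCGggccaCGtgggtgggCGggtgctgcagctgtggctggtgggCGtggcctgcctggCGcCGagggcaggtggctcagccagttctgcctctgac

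The number of CG dinucleotides, a motif that reads alike on both strands, was 38 in PAFAH1B1, 21 in ANKFY1, 8 in GLP2R and 9 in TRPV3. At least 1 was found in 93.9% of all 35116 promoters in the table, with a median of 11. RefSeq promoters were matched by symbol for 173 tested members, with a median of 21, and for 63 members that were not tested, with a median of 6. PAFAH1B1 and ANKFY1 thus had counts at or above the median of the tested members, and GLP2R and TRPV3, the 2 members with the largest fold changes, were under it.

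After the GC correction many more members passed, nearly all in 1 direction. At the same threshold 40 members were higher (17.8%, beside 4.36% of all tested genes) and 1 was lower (0.444%, beside 3.25%). All 41 had groups that did not overlap, and 4 of them were the genes already named. Over all 225 tested members, every RC4-2B library exceeded every C4-2B library for 111 genes (49.3%, beside 16.5% of all tested genes), and the reverse held for 5 genes (2.22%, beside 16.3%). On the counts as deposited these numbers were 72 genes (32.0%, beside 17%) and 11 genes (4.89%, beside 17.1%). Without RC4-2B replicate 2, the fit with no correction called 54 of 227 tested members higher (23.8%, beside 6.50%) and 2 lower (0.881%, beside 6.02%), and with the correction it called 70 higher (30.8%, beside 6.74%) and 3 lower (1.32%, beside 6.59%). The lower members in these fits were TRPV3 and EIF5A, with TMEM256 as the third after the correction.

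Most of the 40 rises were small. The smallest log2 fold change among them was 0.30, and only GLP2R, PIK3R5 and DNAH2 exceeded 1. They were spread over the arm, with 23 among the 151 tested members before MYH10 and 17 among the 74 from MYH10 onward. The first tested gene, RPH3AL, which acts in vesicle release, had 13.0, 11.7 and 13.2 CPM in C4-2B and 16.6, 9.75 and 16.4 CPM in RC4-2B (corrected log2 fold change 0.37, edgeR adjusted p = 0.119). The last, C17orf51, was at 24.4, 24.1 and 23.9 CPM in C4-2B against 35.8, 33.4 and 29.5 CPM in RC4-2B and passed the test (corrected log2 fold change 0.44, edgeR adjusted p = 0.0294).

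**Figure D2:**
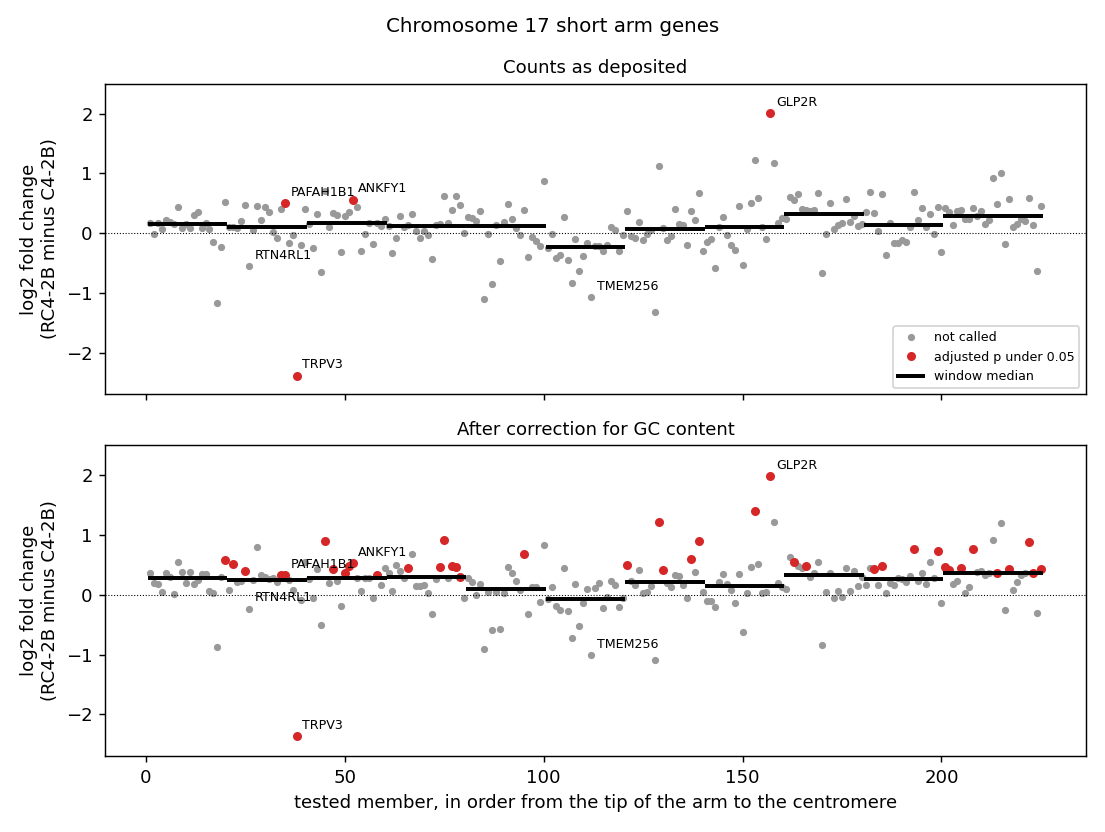
Each point is the log2 fold change (y axis, RC4-2B minus C4-2B) of 1 of the 225 tested members in gene order along the arm (x axis), from counts as deposited (top) and after the GC correction (bottom), in red where the edgeR adjusted p was under 0.05, with a black line at the median of each window of 20 genes (25 in the last). There are 4 red points in the top panel and 41 in the bottom one, where 40 of them lie above 0, and the sixth window, which holds TMEM256, is the lowest in both panels.

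After the GC correction the shift was found along most of the arm. In 11 consecutive windows of 20 tested genes (25 in the last), 10 corrected medians were above 0, and in 9 windows all RC4-2B libraries lay above all C4-2B libraries. On the counts as deposited 10 medians were above 0 too, but the libraries were separated in this way in only 4 windows, and RC4-2B replicate 2 was above 0 in only 5. The highest median, 0.36, was in the window nearest the centromere, from TOP3A to C17orf51 (chr17:18271428-21574517), where the RC4-2B libraries were at 0.365, 0.334 and 0.371. The window from ADPRM to LRRC75A followed with 0.33, and the first 4 windows, from RPH3AL to RPAIN, ranged from 0.26 to 0.29. In each of these 6 windows every RC4-2B library lay above every C4-2B library.

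A stretch in the middle of the arm shared the shift least. The window from CTDNEP1 to EIF4A1 (chr17:7243591-7579005) had a corrected median log2 fold change of -0.07, with RC4-2B libraries at 0.110, -0.310 and 0.030 and C4-2B libraries at 0.064, -0.024 and 0.030. RC4-2B replicate 3 was therefore within the C4-2B values, replicate 1 slightly above them and replicate 2 below them. With RC4-2B replicate 2 left out, the corrected medians of all 11 windows were above 0. The neighbouring window, from C1QBP to GABARAP, was the second lowest with 0.10. Before the correction the CTDNEP1 to EIF4A1 window was at -0.24, with 0.070, -0.869 and -0.063 in the RC4-2B libraries.

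**Figure D3:**
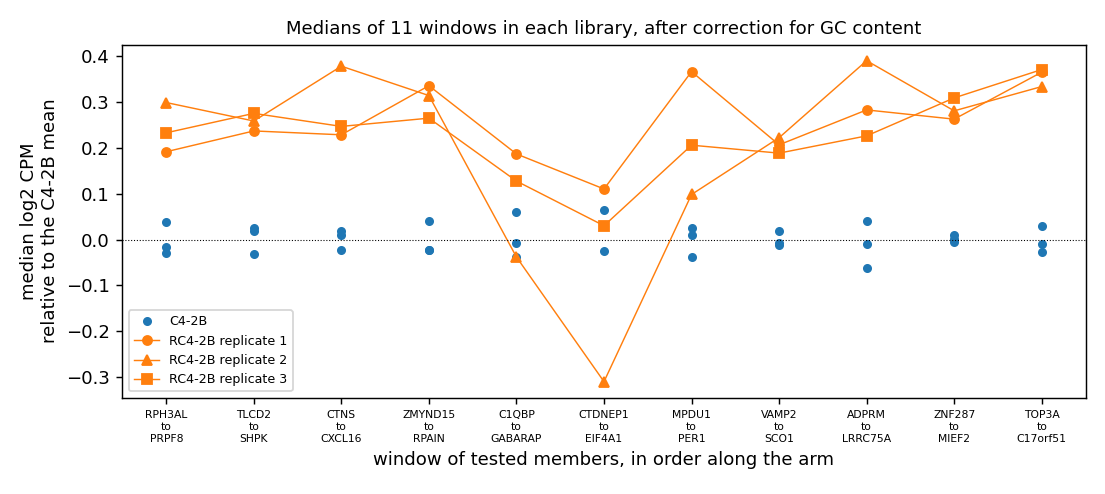
Medians of log2 CPM after the GC correction, relative to the C4-2B mean (y axis), for each library in 11 windows of tested genes in order along the arm (x axis, labelled by first and last gene), with blue points for C4-2B and orange markers joined by lines for RC4-2B replicates 1 to 3. The orange lines dip in the fifth and sixth windows, where replicate 2 reaches -0.310 and replicates 1 and 3 reach 0.110 and 0.030.

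Splitting the arm at 1 point, placed where absolute deviations from 2 medians were smallest, put the boundary between NDEL1 and MYH10, at the start of MYH10 (8474205). Members before it had a median log2 fold change of 0.09 and those from it onward 0.27, or 0.20 and 0.35 after the GC correction. The split removed only 4.02% of the absolute deviation (2.38% after the correction). Of the 3 disjoint pairs of libraries, in which 1 RC4-2B library is compared with the C4-2B library of the same number, 1 placed the split at the same point before and after correction, and the other two moved it along the arm, to starts of 18244836 and 8288497 before the correction and of 1650629 and 5419641 after it. On pair 2 after the correction the step was also turned round, with 0.30 before the split and 0.16 from it onward. The 2 genes at the split overlap on opposite strands. NDEL1, a partner of PAFAH1B1, had 44.0, 43.6 and 46.6 CPM in C4-2B and 52.2, 41.6 and 46.8 CPM in RC4-2B, and the groups overlapped. MYH10, a nonmuscle myosin heavy chain, had 134, 160 and 149 CPM against 180, 263 and 188 CPM, without overlap (corrected log2 fold change 0.46, edgeR adjusted p = 0.0663).

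With 2 split points, an alternative chosen after the windows had been seen, the middle segment ran from DERL2 to NDEL1 on corrected values (chr17:5471251-8490411, 69 genes). Its median log2 fold change was 0.10, beside 0.28 before it and 0.35 after it. The segment was not uniformly low. The window from MPDU1 to PER1, inside it, had a corrected median of 0.22, with 18 of 20 values above 0. In windows of 10 tested genes, CTDNEP1 to KCTD11 was at -0.16 and VAMP2 to RPL26 at -0.009. Between them, MPDU1 to KDM6B was at 0.20 and TMEM88 to PER1 at 0.25. Placed on each disjoint pair of libraries, the middle segment was DVL2 to ZBTB4 on pair 1 (19 genes), DERL2 to AURKB on pair 2 (62 genes) and WSCD1 to EFNB3 on pair 3 (44 genes). Each of the 3 had the lowest of the 3 segment medians, and the shortest of them was contained in the others.

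The pairs that did not place a segment give a reading of it that its placement did not use. In the segment placed on pair 1, corrected medians in pairs 2 and 3 were -0.117 and -0.011 inside, beside 0.252 and 0.242 over the other 206 members. In the segment placed on pair 3, pairs 1 and 2 read 0.175 and -0.085 inside and 0.255 and 0.283 outside. In that placed on pair 2, pairs 1 and 3 read 0.210 and 0.108 inside and 0.251 and 0.266 outside. All 6 readings were lower inside than outside, with the difference smallest in pair 1. When values were corrected for gene length as well as GC content, pair 1 placed another segment, HIC1 to NUP88, which was higher than the rest of the arm.

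**Figure D4:**
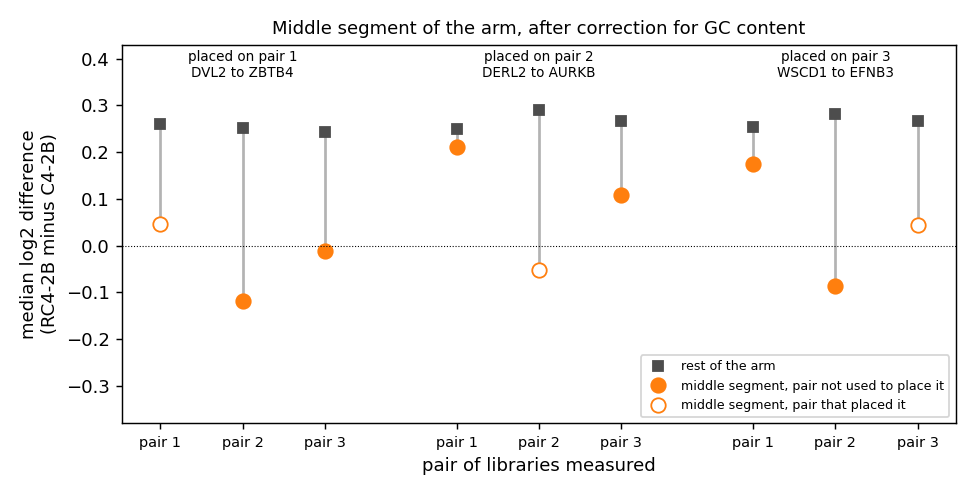
Median log2 difference (y axis, RC4-2B minus C4-2B library of the same number, after the GC correction) inside the middle segment (circles) and over the rest of the arm (squares), for segments placed on each of 3 pairs of libraries and measured in every pair (x axis). The filled circles, which come from pairs that did not place the segment, lie between -0.117 and 0.210 and are all under their squares, which lie between 0.242 and 0.283.

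The 19 tested genes from DVL2 to ZBTB4 (chr17:7225341-7484263) are the segment placed on pair 1, and they lie inside those placed on pairs 2 and 3. They were thus chosen as low in these same libraries, and the contrast below carries that choice. Their corrected RC4-2B medians were 0.036, -0.100 and 0.033, beside 0.265, 0.276 and 0.240 over the other members. With gene length corrected as well, they were at 0.057, -0.110 and 0.067 beside 0.260, 0.281 and 0.235. These genes were more GC-rich than the rest (median 57.6% against 54.7%), shorter (median 3089 against 5143 bases) and less expressed (median 13.6 against 34.3 CPM), and the part of these features in the low medians was not tested beyond the corrections given. None of the 19 passed the edgeR test in either direction after the GC correction. EIF5A, a translation factor that carries the modified residue hypusine, was the most abundant of them, with 802, 693 and 685 CPM in C4-2B and 612, 438 and 547 CPM in RC4-2B.

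A second test asked which genes departed from the median of the arm, by taking that median as the null value (a log2 fold change of 0.14 before and 0.24 after the GC correction). The median came from the same libraries. On counts as deposited, GLP2R lay above it (1 member, 0.444%, beside 0.737% of all tested genes) and TRPV3 below it (1 member, 0.444%, beside 1.94%). After the correction 11 members lay above it (4.89%, beside 2.29%) and 12 below it (5.33%, beside 25.0%). Most genes of other chromosomes lie below the median of this arm, which raises their share below it and lowers their share above it. The members are centred on that median by construction, so neither pair of shares compares like with like. The members named next, beyond those already given, were chosen because they passed this corrected test.

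The 11 members above the median were WDR81, ANKFY1, INCA1, DNAH2, ALOXE3, PIK3R5, GLP2R, DRC3, FLII, FAM83G and NATD1. PIK3R5, a regulatory subunit of the lipid kinase PI3K gamma, had 0.656, 0.679 and 0.740 CPM in C4-2B, from 11 to 13 counts, and 2.19, 1.25 and 1.47 CPM in RC4-2B (corrected log2 fold change 1.40, standard error 0.32). DNAH2, a dynein heavy chain of motile cilia, had 2.98, 2.38 and 3.70 CPM against 6.38, 8.72 and 4.52 CPM (corrected log2 fold change 1.22, standard error 0.30). Both were separated between the lines before the correction too, though neither passed the uncorrected test. INCA1, which inhibits cyclin-dependent kinases, and ALOXE3, a lipoxygenase of the epidermis, had corrected log2 fold changes of 0.91 and 0.89. FLII, an actin-binding protein of the gelsolin family, was the most abundant of the 11, with 238, 241 and 230 CPM in C4-2B and 305, 340 and 316 CPM in RC4-2B. FLII was 1.36-fold higher in RC4-2B on counts as deposited and 1.66-fold after the correction. Its corrected log2 fold change was 0.74 (standard error 0.17, edgeR adjusted p = 0.0476 for the departure).

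The 12 members below the median were RTN4RL1, TRPV3, CAMKK1, TXNDC17, PHF23, CLDN7, EIF5A, ACAP1, TMEM256, RPL26, TTC19 and ULK2. Apart from TRPV3, none of them passed the corrected test of a difference between the lines over all 6 libraries. Without RC4-2B replicate 2 that test called EIF5A lower (log2 fold change -0.28, edgeR adjusted p = 0.0259) and TMEM256 lower (log2 fold change -0.71, edgeR adjusted p = 0.0317). EIF5A had a corrected log2 fold change of -0.27 (standard error 0.09, edgeR adjusted p = 0.00523 for the departure) and ULK2, a kinase that starts autophagy, one of -0.25 (standard error 0.10, edgeR adjusted p = 0.0079 for the departure). In both, every RC4-2B library lay under every C4-2B library. ULK2 stood at 35.4, 34.1 and 32.8 CPM in C4-2B and at 27.4, 32.1 and 30.4 CPM in RC4-2B. EIF5A overlaps GPS2 on the opposite strand and resembles a related gene and processed copies elsewhere, so its counts carry that uncertainty.

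In several of these genes 1 library lay far under the others. TMEM256, the shortest tested member at 707 bases, had 15.6, 11.4 and 11.4 CPM in C4-2B and 10.3, 2.85 and 5.23 CPM in RC4-2B. RPL26, a protein of the large ribosomal subunit with many processed copies in the genome, had 86.2, 70.6 and 64.3 CPM against 73.6, 32.8 and 46.9 CPM. TXNDC17, a thioredoxin-like protein, had 81.7, 71.2 and 71.3 CPM against 72.0, 36.7 and 54.2 CPM. In all 3, RC4-2B replicate 2 was the lowest library and replicate 1 was within or near the C4-2B range. Without RC4-2B replicate 2, the corrected fit still placed these 3 genes, EIF5A, ULK2, CLDN7, PHF23, CAMKK1, RTN4RL1, TTC19 and TRPV3 among the departing members, but not ACAP1.

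**Figure D5:**
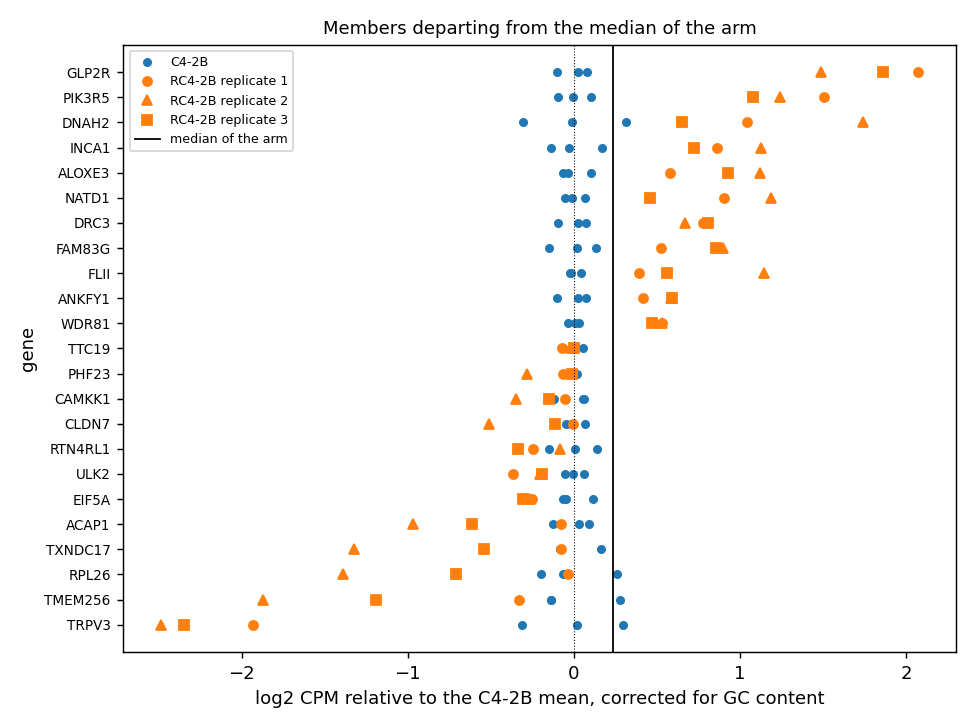
The 23 members that departed from the median of the arm after the GC correction, 1 gene per line, with the log2 CPM of each library relative to the C4-2B mean on the x axis (blue for C4-2B, orange markers for RC4-2B replicates 1 to 3) and a solid vertical line at the median log2 fold change of the arm, 0.24. GLP2R at the top and TRPV3 at the bottom are the farthest from the line, and replicate 2 (triangle) is the lowest library in TMEM256, RPL26, TXNDC17 and ACAP1.

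The members were also read by function, in lists drawn up with earlier results of these data known. On the counts as deposited, the 9 lists had median log2 fold changes of 0.09 to 0.25, 87 of their 131 tested genes had values above 0, and PAFAH1B1 was the only one called higher and TRPV3 the only one called lower. After the correction the medians were 0.19 to 0.34, 109 values were above 0 and 24 genes were called higher, so every rise named below other than that of PAFAH1B1 was called only after the GC correction. For each list the corrected median log2 fold change stands beside -0.0001 over all tested genes, and its called members beside the 4.36% of all tested genes that were higher. All list genes are members of the arm, so the arm is the nearer comparison. Its corrected median was 0.24, with 82.2% of values above 0 and 17.8% of tested members called higher. The list medians lay on both sides of that median, and no list was tested against the rest of the arm. All 8 tested genes of DNA damage and chromosome maintenance had corrected values above 0 (median 0.34), and 2 rose. RPA1, the large subunit of the complex that coats single-stranded DNA, had 338, 340 and 320 CPM in C4-2B and 418, 532 and 434 CPM in RC4-2B (edgeR adjusted p = 0.0357). TOP3A, a topoisomerase that resolves recombination intermediates, had 79.6, 81.1 and 81.8 CPM against 101, 114 and 108 CPM (edgeR adjusted p = 0.0234). AURKB, the kinase of the chromosomal passenger complex, had 90.7, 95.2 and 74.5 CPM against 111, 68.5 and 99.5 CPM, and the lines overlapped.

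Among 20 tested genes of transcription and chromatin, 17 corrected values were above 0 (median 0.23) and 3 genes rose: KDM6B, which removes methyl groups from histone H3, and the zinc finger genes ZNF232 and ZNF18. NCOR1 had 188, 225 and 224 CPM in C4-2B and 263, 400 and 281 CPM in RC4-2B, a corrected log2 fold change of 0.45 (edgeR adjusted p = 0.0548). The lines did not overlap for NCOR1, and RC4-2B replicate 2 was its highest library. Without that library the corrected log2 fold change was 0.31 and the rise passed the test (edgeR adjusted p = 0.0194). SREBF1, a regulator of lipid synthesis, had 726, 697 and 696 CPM against 841, 420 and 657 CPM, and its log2 fold change was -0.14 before and 0.22 after the correction, with neither value called. CHD3, a chromatin remodeller, had 278, 287 and 269 CPM against 332, 280 and 317 CPM. PER1, a repressor of the circadian clock and not on these lists, had 34.5, 36.1 and 36.3 CPM against 34.4, 18.5 and 34.2 CPM, a log2 fold change of -0.29 that became 0.05 after the correction.

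Of 13 tested genes of RNA processing and translation, 8 corrected values were above 0 (median 0.21) and 3 genes rose. PRPF8, the core protein of the spliceosome, had 603, 667 and 662 CPM in C4-2B and 808, 1087 and 862 CPM in RC4-2B (corrected log2 fold change 0.58, edgeR adjusted p = 0.039). ELAC2, which trims the ends of transfer RNAs, and NUP88, a nuclear pore protein, had corrected log2 fold changes of 0.48 and 0.30. The list also held EIF5A and RPL26 on the low side, so its corrected values ran from -0.62 to 0.58.

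Of 18 tested signalling genes, 16 corrected values were above 0 (median 0.29) and 4 genes rose, namely MAP2K3, MINK1, ARRB2 and PIK3R5. MAP2K4, a kinase that activates JNK, had 41.8, 49.5 and 52.0 CPM in C4-2B and 61.4, 101 and 62.0 CPM in RC4-2B, and its groups did not overlap (corrected log2 fold change 0.48, edgeR adjusted p = 0.056). YWHAE, a 14-3-3 adaptor protein and among the most abundant members, had 1447, 1377 and 1384 CPM against 1645, 1833 and 1734 CPM (corrected log2 fold change 0.18, edgeR adjusted p = 0.274). FLCN, a regulator of nutrient signalling at the lysosome, had 35.3, 32.6 and 29.3 CPM against 39.4, 25.8 and 34.5 CPM and overlaps MPRIP on the opposite strand. PITPNA, which moves phosphatidylinositol between membranes, had a corrected log2 fold change of 0.07 (standard error 0.10) and overlapping groups.

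In the 13 tested genes of cytoskeleton and motors, all corrected values were above 0 (median 0.33) and 4 genes rose: FLII, MPRIP, PAFAH1B1 and DNAH2. PFN1, the actin-binding protein profilin, had 930, 775 and 755 CPM in C4-2B and 830, 879 and 703 CPM in RC4-2B, and the lines overlapped. MYO1C, a myosin of the cell cortex, had 466, 493 and 490 CPM against 516, 512 and 516 CPM, a narrow separation. Its log2 fold change was 0.09 before and 0.35 after the correction, and it did not pass the corrected test (edgeR adjusted p = 0.144).

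Of 18 tested genes of mitochondria and metabolism, 15 corrected values were above 0 (median 0.19), and ALDH3A2, a fatty aldehyde dehydrogenase, and SLC16A13, of the monocarboxylate transporter family, rose. C1QBP, a protein of the mitochondrial matrix, had 611, 535 and 530 CPM in C4-2B and 699, 662 and 657 CPM in RC4-2B (corrected log2 fold change 0.28, edgeR adjusted p = 0.101). ACADVL, which starts the oxidation of long fatty acids, had 387, 391 and 391 CPM against 484, 260 and 371 CPM.

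For ubiquitin, proteasome and autophagy, 12 of 14 tested genes had corrected values above 0 (median 0.20), and COPS3, a subunit of the COP9 signalosome, and TRIM16L rose, the latter with the caveat that it resembles TRIM16 nearby. COPS3 had 166, 161 and 156 CPM in C4-2B and 209, 330 and 218 CPM in RC4-2B. USP22, a deubiquitinase that acts on histones, had 476, 512 and 516 CPM against 573, 524 and 570 CPM, without overlap and without passing the test (corrected log2 fold change 0.22, edgeR adjusted p = 0.162). UBB, a polyubiquitin gene made of near-identical repeats, varied within lines, with 324, 336 and 168 CPM in C4-2B.

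Of 11 tested genes of membrane traffic, 9 corrected values were above 0 (median 0.30), and RABEP1, a Rab5 effector, and TRAPPC1, of a vesicle tethering complex, rose with log2 fold changes of 0.46 and 0.60. Of 16 tested genes with tissue-restricted roles, 11 corrected values were above 0 (median 0.32), ALOXE3 and the ATP-gated channel P2RX5 rose and TRPV3 fell. CLDN7, a tight junction protein, had 212, 193 and 189 CPM in C4-2B and 193, 87.8 and 165 CPM in RC4-2B. ALOX15, a lipoxygenase, had 114, 108 and 117 CPM against 121, 125 and 136 CPM, a separation that was not called (corrected log2 fold change 0.28, edgeR adjusted p = 0.127). PMP22, a myelin protein also found in epithelia, had 3.10, 3.23 and 3.93 CPM against 6.13, 5.99 and 4.23 CPM (corrected log2 fold change 0.54, edgeR adjusted p = 0.144).

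The other 120 members could not be tested. Of these, 56 had 0 counts in every library, among them 4 of the cytoskeleton list and 11 of the tissue-restricted list, and 34 more had at most 3 counts in every library. The skeletal muscle myosins MYH1, MYH2, MYH4, MYH8 and MYH13 and 9 olfactory receptor genes of the lists were not tested. A further 30 members had more than 3 counts in some library. For genes under the limit of 3 counts, a difference between the lines was not detectable at this depth.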

How the data were processed

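Members and gene lists were chosen with earlier results of these data known. STAR alignments to GRCh38 were turned by the authors into read counts per gene, deposited as whole numbers with no scaling, and into FPKM values. The counter, strand handling and annotation release are not given in the sources used here. Counts were analysed with edgeR 4.0.16 in R 4.3.3 (TMM, filterByExpr with a minimum of 10 counts, quasi-likelihood F test without robust estimation, Benjamini-Hochberg adjustment over 15054 genes). Library medians were compared by exact permutation tests on values centred over the 6 libraries. The GC correction smoothed each library's deviation from the gene mean against GC content of the longest GENCODE 44 transcript (lowess, span 0.2), known for 99.6% of tested genes, and entered the fit as an offset, which also removes any mean GC trend between the lines. Split points needed at least 15 genes a segment. Named genes were members called in either test, the 5 highest and 5 lowest departures among members with non-overlapping groups and mean log2 CPM from 2 upward, the 2 most abundant genes of each list with NCOR1, MAP2K4, AURKB, SREBF1, FLCN and USP22, and genes at split points and ends, and 1 gene of that rule is not reported here. Members called only after the GC correction were named after their values were seen. Fits were tried on simulated data with less spread, and a larger step along the arm, than these data show. That trial gives no measure of their accuracy here. DESeq2 1.42.0 and limma 3.58.1 on FPKM were alternatives. Replicate pairs of 1 line differed beyond sampling noise (chi-square per gene 3.38 to 65.4).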

Additional observations from a re-analysis of the deposited data

How the results depend on the processing

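The median over the arm was above 0 in every alternative run, from 0.079 without RC4-2B replicate 1 to 0.254 after correction for GC content and gene length, beside 0.122 as deposited. The short arm minus the long arm kept its sign except without C4-2B replicate 2 (0.003). RLE or upper-quartile scaling and a filter at a mean of 10 counts moved no count of members. With no filter beyond 1 count, 16 members were higher (beside 2.07% of all genes tested), 3 lower (beside 2.22%) and 12 departed from the median of the arm. DESeq2 called 14 higher (beside 3.28% of all genes) and 1 lower (beside 2.64%). limma on log2(FPKM + 1) and on log2(FPKM + 0.1) called 0 of 181 members higher and 0 lower, where edgeR called 3 and 1. Over all 11987 genes of these fits it called 46 and 39 higher and 58 and 47 lower. Each gave 53 members higher (beside 10.5% of all genes) and 3 lower (beside 10.1% and 9.53%) at an unadjusted p under 0.05. TRPV3 and GLP2R did not pass the FPKM filter, so limma could not call them. The GC correction gave 40 higher (beside 4.36% of all genes) and 23 departing. A further 2 alternatives were chosen after seeing the data. Correction for GC content and gene length gave 37 higher (beside 4.08%) and 25 departing. The GC correction without RC4-2B replicate 2 gave 70 higher (beside 6.74%), 3 lower (beside 6.59%), 34 departing and 11 windows above 0. Leaving out each library in turn gave 0 to 54 members higher, beside 0.0838% to 6.50% of all genes tested. These runs gave 1 to 2 members lower, beside at most 6.02% of all genes tested. The calls over all genes thus changed as well, so the range of counts is not particular to the arm. Departing members numbered 1 to 30, for which no share over all genes is given here, and 6 to 10 windows were above 0. The counts of 54 and 30 were reached without RC4-2B replicate 2, and 6 windows without RC4-2B replicate 1. The split point moved only in the GC correction without RC4-2B replicate 2, to 7717354. The cause of these changes was not tested.

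The replicate numbers were not taken to pair the samples. Deviations of same-numbered libraries correlated by 0.141, 0.084 and -0.011, beside -0.126 to 0.054 for libraries of unlike number. These deviations also carry the GC trends of the libraries, so they cannot settle whether samples were handled in pairs. With the replicate number as a block, edgeR called 0 members higher (beside 0.365% of all genes) and 1 departed. The block together with the GC correction gave 38 higher (beside 4.26%), 3 lower (beside 3.75%) and 21 departing.

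Some named members changed sign, none of them past the test after the change. With the GC correction the log2 fold changes were 0.048 for PER1, 0.22 for SREBF1, 0.14 for ACADVL and 0.024 for PFN1. With the replicate block as well they were 0.049 for PER1, 0.22 for SREBF1, 0.13 for ACADVL and 0.019 for PFN1. With GC content and gene length corrected and no block they were 0.025 for PER1, 0.18 for SREBF1, 0.14 for ACADVL, 0.11 for PFN1 and -0.0032 for NDEL1. With the GC correction and without RC4-2B replicate 2 they were 0.073 for PER1, 0.21 for SREBF1, -0.013 for PITPNA, 0.20 for ACADVL and -0.18 for UBB. Over the libraries left out in turn, log2 fold changes ran from -0.30 to 0.13 for ACADVL, -0.044 to 0.28 for AURKB, -0.098 to 0.19 for FLCN, -0.014 to 0.14 for NDEL1, -0.097 to 0.071 for PFN1, -0.39 to 0.085 for SREBF1 and -0.17 to 0.29 for UBB.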
